A study of Drosophila melanogaster with 4 samples.

Results

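Focal Myb peaks are short stretches of the *Drosophila* genome that stood out in Myb ChIP-chip of wing imaginal discs while the DNA on either side did not. They were chosen by the log2 ratio of the Myb immunoprecipitate over input, centred on the median of each array. A value of 1 means a ratio 2 times as high as that of the array's median probe. A focal peak is a run of 4 or more probes whose running mean over 3 probes was above 0.8 in both replicates, with probe starts at most 150 bp apart. It spans less than 1000 bp, and the mean of both replicates is below 0.3 in each of the 1-kb flanks. Arms 2L, 2R, 3L, 3R, 4 and X have 1563891 probes measured in both replicates. Of these 5.00% passed the height criterion, and they formed 7572 strong runs. Of these, 7318 spanned less than 1 kb, and 70 were focal peaks, which is 0.924% of the strong runs. The same rule with the sign of the ratio turned found 18 focal runs among 536 low runs (3.36%), where 0.655% of the probes passed the height criterion. The values of the 70 peaks come from the contrast that chose them, so heights, widths and flanks are described and no test of them was made.

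Myb is a transcription factor that binds DNA directly and is known for its part in the expression of genes of mitosis. In *Drosophila* it is a subunit of the dREAM or Myb-MuvB complex, which also holds E2F2, DP, RBF and the Mip proteins and can activate or repress its targets. Insulator proteins such as BEAF-32 and CTCF bind short sequences that separate chromatin domains or block enhancers from promoters. CP190 is an ancillary protein of insulators.

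The chromatin came from imaginal wing discs, larval sacs of epithelium that later form the wings, of male 3rd instar larvae. Their strain was yellow white (yw67), which the study used as its control. It was fixed with 1.8% formaldehyde for 15 min and sheared to fragments of 400 bp on average, and 1000 discs went into each immunoprecipitation per the sample records. There were 2 biological replicates on 2 array designs each, which gives 4 arrays and 1 measurement of each probe per replicate, so the number of arrays limits the precision of every value. The immunoprecipitate was labeled with Cy5 and input with Cy3 on all 4 arrays, and with no dye swap a dye effect cannot be told apart from Myb binding. A disc is a mixture of cell types, in which binding in few cells and weak binding in many cannot be told apart. The probes of 2L, 2R and 3L are on design 1 and those of 3R, 4 and X on design 2, so these sets of arms cannot be told apart from the array designs. Probes are 50 bp long with starts a median of 66 bp apart. Between 98.9% and 99.2% of the spots of an array were well above background in the immunoprecipitate and between 97.7% and 98.6% in input.

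The 70 peaks together spanned 27561 bases and held 398 probes. Their span had a median of 324 bp (quartiles 251 and 506 bp, range 238 to 918 bp), and 44 of the 70 spanned no more than the average fragment of 400 bp. A peak of this kind is a few probes wide, since 30 peaks had 4 probes and 14 had 8 or more. The width at 50% of the rise from the mean of the flanks to the summit had a median of 445 bp (176 to 796 bp).

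In replicate 1 the median height of the peaks was a log2 ratio of 1.17 (0.85 to 1.74). In replicate 2 it was 1.33 (0.88 to 2.65), and the median of the peaks' means over both replicates was 1.23 (0.94 to 1.90). Of the 70 peaks, 55 had a mean above 1 in both replicates, and 13 had a mean over both replicates above 1.5. Most peaks were higher in replicate 2, namely 51 of 70, with a median difference of 0.15 (replicate 2 minus replicate 1, range −0.68 to 1.54). The summit of a peak is its probe with the highest running mean over 3 probes, averaged over both replicates. Its smoothed ratio had a median of 1.26 in replicate 1 and 1.56 in replicate 2. With the summit taken in each replicate by itself, both replicates had the same summit probe in 20 peaks. These summits lay at most 150 bp apart in 59 peaks. Across the 70 peaks Pearson's r between the replicates was 0.25. The peaks share a lower limit of height in both replicates, and the points of each replicate share a library and a scan, so it is a description only.

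**Figure D1:**
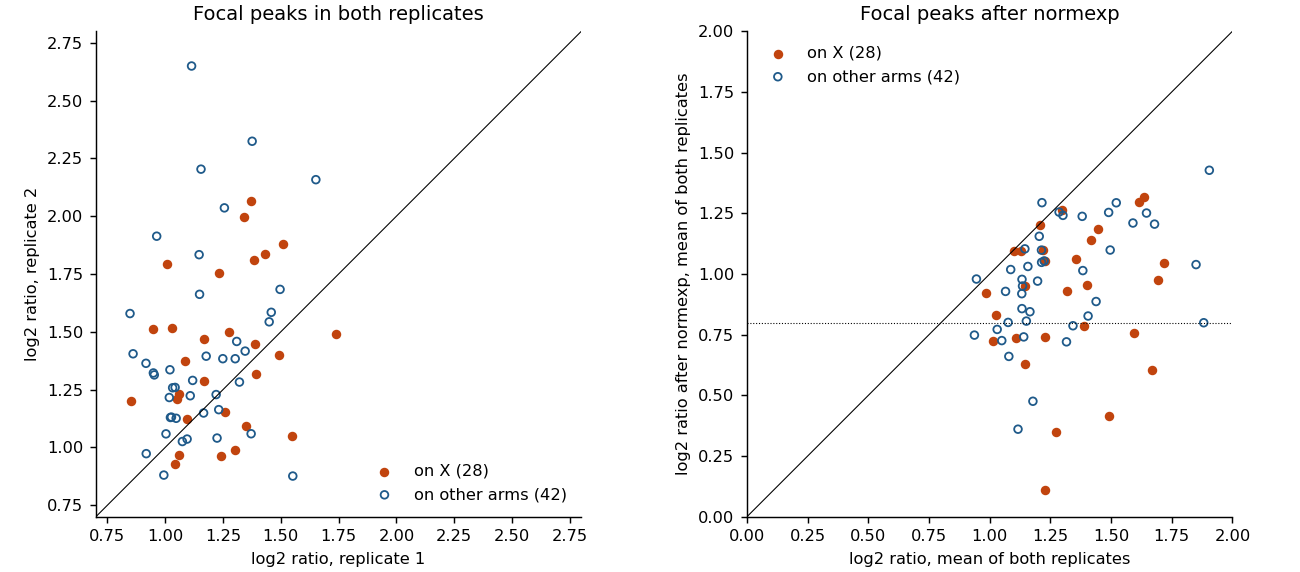
Left, the mean log2 ratio of each of the 70 focal peaks in replicate 1 (horizontal) and replicate 2 (vertical), with filled points for the 28 peaks on X, open points for the 42 on the other arms and a line of equal values. 51 points lie above the line. Right, the mean of both replicates as reported (horizontal) and after normexp background correction (vertical), with a line of equal values and a dotted line at 0.8. All 70 points lie above 0 after normexp.

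The flanks were quiet in replicate 1 and less so in replicate 2. For the left 1-kb flank the median ratio was 0.03 in replicate 1 and 0.32 in replicate 2. For the right flank it was 0.09 in replicate 1 and 0.31 in replicate 2. Both flanks were below 0.3 in replicate 1 in 57 peaks, in replicate 2 in 15 peaks, and in each replicate in 7 peaks. At least 1 flank had a mean of both replicates below 0 in 13 peaks. The ratio within 100 bp after the centre averaged 1.26 in replicate 1 and 1.49 in replicate 2, and between 500 and 600 bp after it 0.01 and 0.29. The lowest bin in replicate 1, between 700 and 800 bp after the centre, had −0.15 in replicate 1 and 0.11 in replicate 2.

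**Figure D2:**
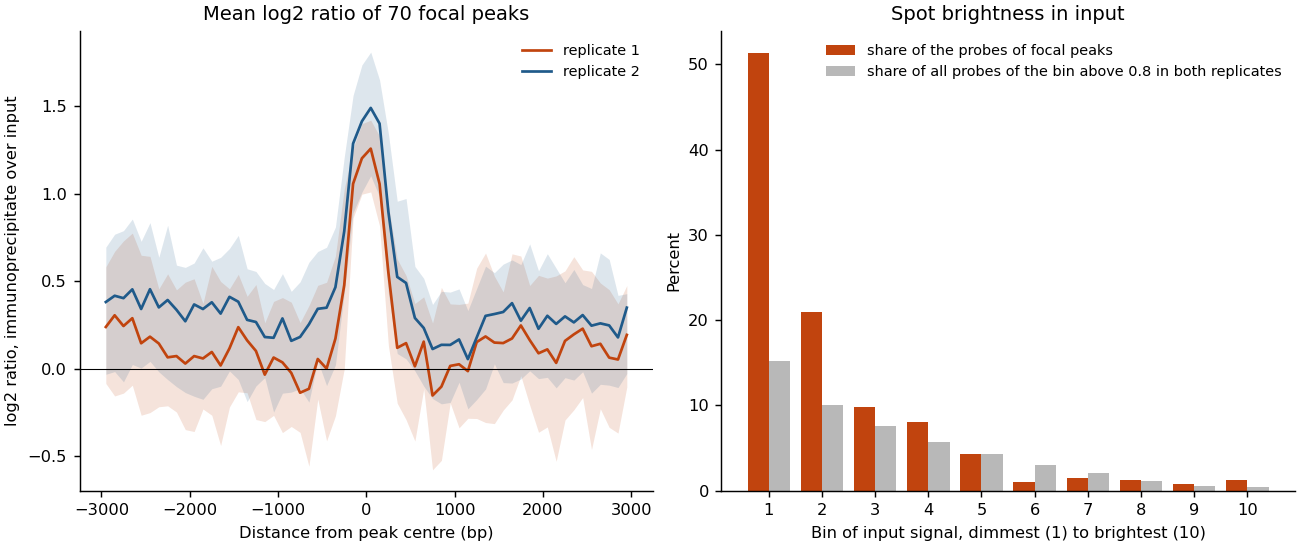
Left, the mean log2 ratio of immunoprecipitate over input at the 70 focal peaks in bins of 100 bp, by distance from the peak centre, with shading between the quartiles over the peaks. The ratio is highest at the centre, at 1.26 in replicate 1 and 1.49 in replicate 2. Right, the probes of the arms in 10 bins of equal number by input signal, with the share of the probes of focal peaks in each bin beside the share of all its probes above 0.8 in both replicates, both in percent. The dimmest bin holds 51.3% of the probes of focal peaks.

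A strong run with quiet flanks was rare. Over all 7318 runs under 1 kb, the higher of the flank means had a median of 0.87, and it was below 0.4 in 204 runs and below 0.5 in 480. The 7248 short runs with a raised flank had a similar height to the focal peaks, with medians of 1.20 in replicate 1 and 1.37 in replicate 2. The 254 runs of 1 kb or more had medians of 1.30 and 1.65. The focal peaks were no higher than the other runs by these medians.

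**Figure D3:**
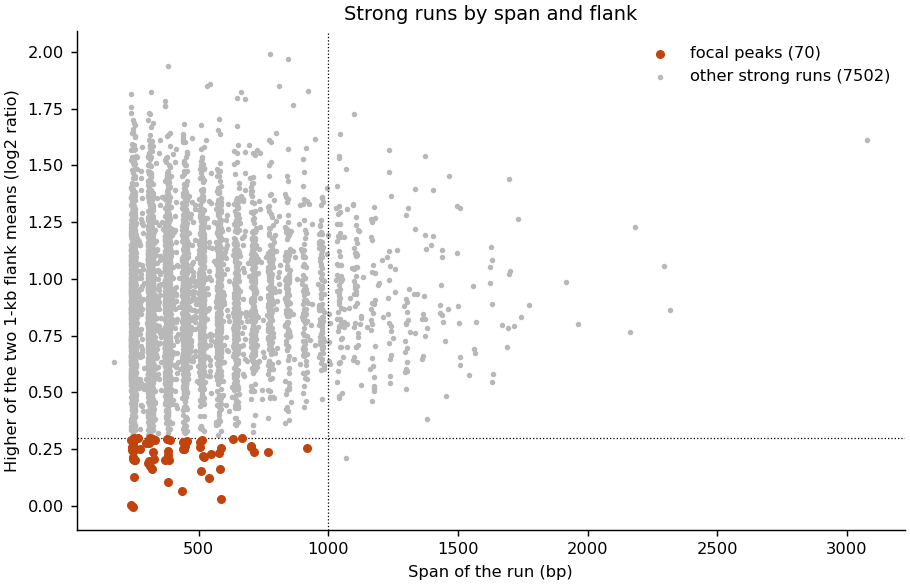
Every strong run by its span in bp (horizontal) and the higher of its flank means as a log2 ratio (vertical). The 70 focal peaks lie below the limit of 0.3 and left of the limit of 1000 bp, both drawn as dotted lines, and the median of all runs under 1 kb is 0.87.

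The focal peaks also lay in stretches with less Myb signal over a wider range than the rule used. Within 10 kb on either side, the median log2 ratio was 0.20 in replicate 1 and 0.31 in replicate 2 at the focal peaks, against 0.40 and 0.53 at the short runs with a raised flank and 0.42 and 0.56 at the runs of 1 kb or more. The run and its 1-kb flanks were left out of these means. The next strong run was a median of 7043 bp away from a focal peak (1072 to 126415 bp), against 807 bp for short runs with a raised flank and 683 bp for runs of 1 kb or more. The flank limit leaves little room for a strong run within 1 kb of a focal peak, where both other medians lie. This difference in distance therefore follows in part from the rule. No other strong run lay within 10 kb of 28 of the 70 peaks, and 9 had one within 2 kb. The peaks were single: the next focal peak was a median of 445322 bp away. The pair nearest to each other lay on X, where chrX:20264948 (1.34 and 1.99 in replicates 1 and 2) and chrX:20271184 (1.39 and 1.32) are the starts of peaks 5655 bp apart.

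The spots behind the focal peaks were dim. Their immunoprecipitate signal had a median of −1.19 in replicate 1 and −1.28 in replicate 2 on the log2 scale relative to the array median, against −0.52 and −0.62 in the short runs with a raised flank. Their input signal had medians of −2.24 and −2.62, against −1.67 and −1.96 in those runs. In the runs of 1 kb or more the medians were −0.84 and −0.89 for the immunoprecipitate and −2.08 and −2.47 for input. Input was lower in the peak than in its flanks in both replicates at 56 of the 70 peaks (80%). For the short runs with a raised flank the share was 58.7%, and for the runs of 1 kb or more 73.6%. The immunoprecipitate was higher than in the flanks in both replicates at 30 peaks (42.9%), against 53.1% and 44.5% of these kinds of run. Its change from the flanks was larger in size than that of input in both replicates at 16 peaks (22.9%), against 40.1% and 26.8%. Dim input was thus not particular to the focal peaks. The flank limit acts on the difference between the changes of immunoprecipitate and input, so this comparison of kinds of run is not independent of the rule. Probes differ in how well they hybridize, so these values give the brightness of the spots and not an amount of DNA. The probes of the arms were divided into 10 bins of equal number by input signal. The bin of lowest input held 51.3% of the probes of focal peaks, and the next bin held 20.9%. Of all probes in the lowest bin, 15.2% passed the height criterion, compared with 0.431% in the highest bin. Their median log2 ratio in the lowest bin was 0.19 in replicate 1 and 0.44 in replicate 2, and in the highest bin −0.18 and −0.19. Input is the denominator of the ratio, and the part of dim spots in the peaks was not tested. Of the probes of focal peaks, 100% were well above background in the immunoprecipitate in both replicates, and in input 94.97% in replicate 1 and 90.5% in replicate 2. No spot of the 796 was saturated.

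With another background correction (normexp, a model of signal and background fitted per array and channel, after which an offset of 50 is added to each signal), the 70 peaks had median log2 ratios of 0.87 in replicate 1 and 1.01 in replicate 2. All 70 stayed above 0 in both replicates, and 39 (55.7%) had a mean above 0.8 in both. Of the short runs with a raised flank, 76.2% had a mean above 0.8 in both, and of the runs of 1 kb or more 87.0%. The model and the offset were changed together, and adding an offset brings the ratio of dim spots closer to 0.

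The highest peak, ranked by the lower of its replicate means, was chr3R:24875138-24875516 with 1.65 and 2.16 in replicates 1 and 2 (1.90 ± 0.36, SD, n = 2). Its 6 probes had ratios between 0.96 and 2.35 in replicate 1 and between 1.29 and 3.35 in replicate 2. The second was chrX:6737581-6738127 with 1.51 and 1.88 (1.69 ± 0.26). After normexp the 3R peak had a mean of 1.43 and the X peak 0.97.

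The third was chr3R:14973371-14974036 with 1.497 and 1.68 (1.59 ± 0.13). It overlaps a site that the study's list of Myb peaks assigns to *Ppcs*, whose product is an enzyme of coenzyme A synthesis. It was also the peak nearest to the flank limit, with a left flank of 0.298. After normexp its mean was 1.21.

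The fourth had the highest ratio of all in replicate 1. It lies at chrX:15967176-15967415, 61 bp beyond the end of a transcript of *Nipsnap*, with 1.74 and 1.49 (1.62 ± 0.17). Its flanks had means of 0.00 and −0.13. The height after normexp was 1.45 in replicate 1 and 1.14 in replicate 2. *Nipsnap* encodes a protein that in mammals is found at mitochondria.

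A peak in *Mcm3*, a subunit of the helicase that unwinds DNA at replication forks, ranked seventh. It lies at chrX:5218037-5218670, inside a transcript and 7 bp from its end, with 1.43 and 1.84 (1.64 ± 0.29). Its 9 probes were above 0.95 in replicate 1, and in replicate 2 ranged between 0.76 and 3.32. After normexp the values were 1.23 and 1.40. The next strong run was 1234 bp away, so this is one of the 9 focal peaks with such a neighbour.

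A further X peak, the ninth, lies at chrX:12096705-12097076, at a site the study's list assigns to *Ten-a*, a transmembrane teneurin with a role in the matching of synaptic partners. It had 1.39 and 1.45 (1.42 ± 0.04), with the smallest SD among the 10 highest peaks. After normexp both replicates had 1.14.

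The other 4 of the 10 highest peaks were not placed at a gene in the tables used here. They were chr3L:20021832-20022213 (1.46 and 1.58), chr3L:23143121-23143820 (1.45 and 1.54, 10 probes), chrX:1180954-1181393 (1.49 and 1.40) and chrX:7797113-7797428 (1.38 and 1.81). The 3L peaks lay 21917 and 23611 bp from the next strong run, in stretches with a mean of −0.17 and −0.21 around the first and −0.20 and −0.31 around the second. They are the peaks of the 10 with the lowest surroundings in replicate 2.

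On the remaining arms the highest peak was chr2R:3283098-3283411 with 1.32 and 1.28 (1.30 ± 0.03), chr2L:6082729-6082980 with 1.22 and 1.23 (1.22 ± 0.01), and chr4:1000441-1000979 with 1.26 and 2.04 (1.65 ± 0.55). The peak on 4 was the one focal peak of that arm, with 8 probes and 21263 bp to the next strong run.

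**Figure D4:**
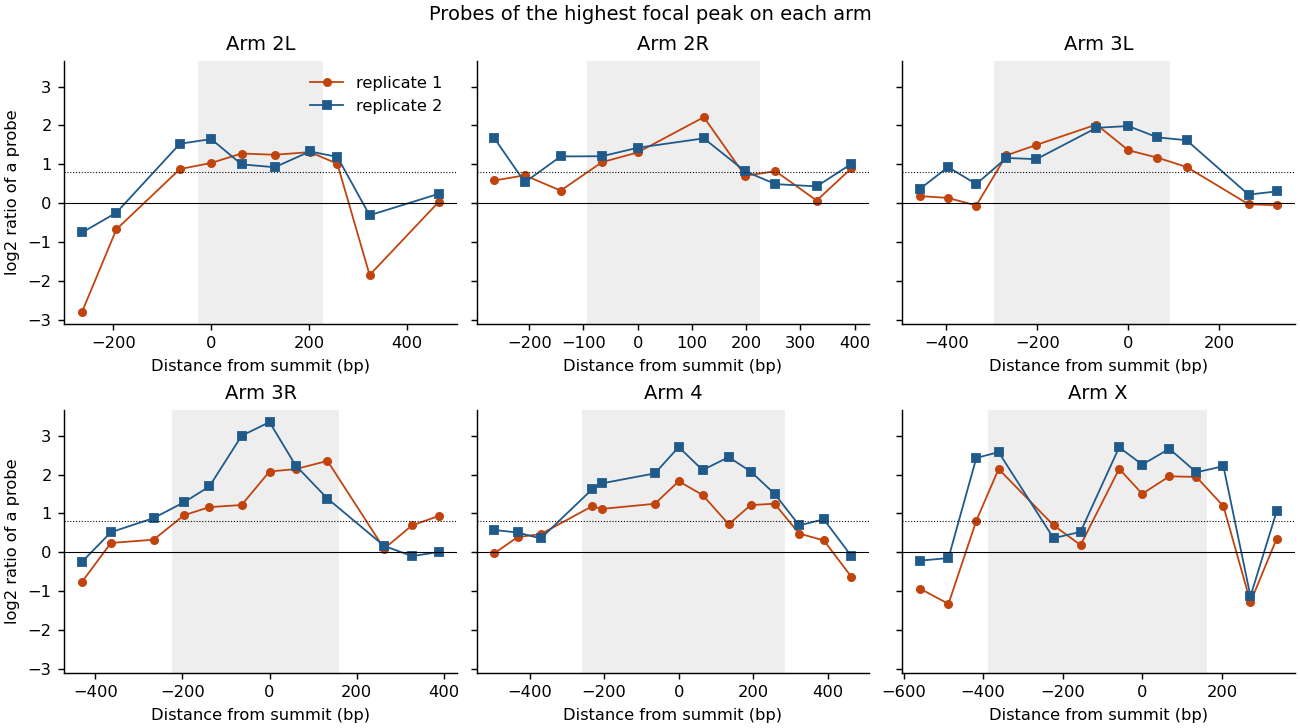
The log2 ratio of single probes (vertical) by distance from the summit in bp (horizontal) at the highest focal peak of each arm, with 3 probes on either side. Circles are replicate 1 and squares replicate 2, the grey band is the peak and the dotted line the limit of 0.8. The 3R peak reaches 2.35 in replicate 1 and 3.35 in replicate 2, and the X peak holds 2 probes below the limit in both replicates, since the limit applied to the mean over 3 probes.

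The replicates differed most at chr2R:11237268-11237581, with 1.11 in replicate 1 and 2.65 in replicate 2 (1.88 ± 1.09). Its input spots were dim, at −3.77 and −5.59 relative to the array median, and after normexp its mean was 0.80. The next were chr2R:8930002-8930587 with 1.15 and 2.20 and chr3L:8308562-8308941 with 0.96 and 1.91, and after normexp their means were 1.21 and 0.89. All 3 were higher in replicate 2 and had a lower input signal in replicate 2 than in replicate 1.

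Of the 70 peaks, 11 could be placed at a gene through the 1400 entries of the study's peak list and the 1999 transcripts of its expression table that were used here, so the count is a lower bound. Besides those above, they include *Sap-r*, a lysosomal saposin (chr3R:26714371-26715082, 1.11 and 1.22). The peak chrX:14957606-14957856, with 1.37 and 2.06, lies 481 bp from a transcript end of *hiw*, a ubiquitin ligase that restrains the growth of synapses, at a site that the study's list assigns to *hiw* and CG5548. The peak chrX:17143323-17143758 (1.28 and 1.4998) overlaps the end of a transcript of *f*, forked, which encodes an actin-bundling protein of bristles. For CG1648 and CG34033 the peak was chr2R:5707414-5707857 (1.15 and 1.83), for CG2076 chrX:10984117-10984506 (1.17 and 1.47), and for CG12698 chrX:15899704-15899951 (1.09 and 1.12). The transcripts are given without a strand, so an end may be a start or a stop of transcription.

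No placed member of 4 gene lists (mitosis, S phase, dREAM complex, insulator proteins) had a focal peak within 500 bp of a transcript end or inside a transcript, although *Mcm3*, which is on none of the lists, did. Of the 1737 genes with a transcript used here, 7 had such a focal peak (0.403%), and 550 (31.7%) had a strong run within 500 bp of a transcript end. These genes are part of an expression table and no random sample of the genome. Of 33 listed mitosis genes, 19 could be placed, 14 had a strong run by the same rule, and 0 had a focal peak. The 5 placed without a strong run were *Mps1*, *Sse*, *Klp61F*, *cmet* and *Cks30A*. Examples are *aurA*, a mitotic kinase, whose highest run had 1.25 and 2.06, *asp*, a spindle pole protein, with 1.79 and 1.44, and *CycB*, a mitotic cyclin, with 1.28 and 1.51. For the S phase genes the counts were 8 listed, 6 placed, 3 with a strong run and 0 with a focal peak. For the dREAM complex they were 13, 3, 2 and 0, with 1.53 and 1.77 at *E2f2* and no strong run at *Myb* itself. For the insulator proteins they were 8, 2, 1 and 0, with 1.51 and 2.04 at *BEAF-32*. A count of 0 focal peaks among so few genes is near the background, and nothing particular to these genes is read from it.

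Of the 7 enhancer-blocking elements in the tables of the study, 1 overlapped a focal peak, a locus chosen after its values were seen, and 5 overlapped a strong run. The paper reports these elements as bound by Myb in its own Myb data, so their overlap with strong runs is no independent result. Of the probes, 0.0254% lay in focal peaks and 3.09% in strong runs. Those shares are of single probes, and an element is longer than a probe, so they are no matched background for the counts. The overlapping focal peak is chr2R:5429263-5429588 and the element chr2R:5428851-5429464. The ratio was 1.02 in replicate 1 and 1.22 in replicate 2 (1.12 ± 0.14), and its 4 probes lay between 0.80 and 1.34 in replicate 1 and between 0.87 and 1.42 in replicate 2. After normexp the mean was 0.36, below the height criterion.

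The X chromosome held 28 of the 70 focal peaks, or 40.0%, against 20.7% of the strong runs and 19.0% of the probes. Of the strong runs on X, 1.79% were focal peaks, against 0.924% over all arms. Since X shares its array design with 3R and 4, the share within design 2 was also taken, and X held 28 of 39 focal peaks (71.8%), 46.4% of the strong runs and 43.6% of the probes there. Arm 3L held 13 peaks, 2R 12, 3R 10, 2L 6 and 4 held 1. The probes of X had a median log2 ratio of 0.07 and 0.14 and a median input brightness of −0.77 and −0.83, against −0.39 and −0.45 on 3R. Male cells have a single X, and the part of dimmer input in the share was not tested. With each arm centred on its own median the share was 41.1%, whereas with normexp it was 27.6% and with flanks taken from 400 to 1400 bp away 16.8%. The median height of the peaks in replicates 1 and 2 was 1.25 and 1.39 on X, 1.23 and 1.39 on 3L, 1.17 and 1.37 on 3R, 1.07 and 1.25 on 2R, and 1.04 and 1.24 on 2L. The 1 peak on 4 had 1.26 and 2.04.

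**Figure D5:**
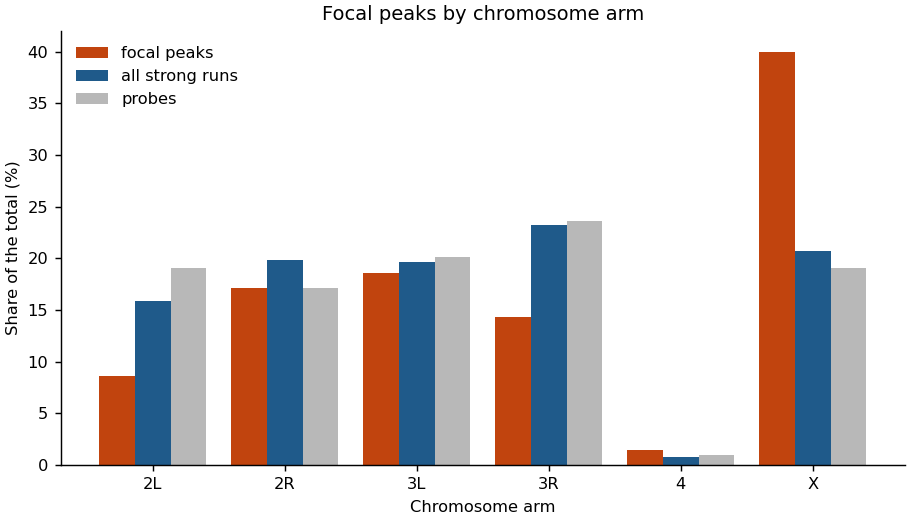
Shares in percent of the focal peaks, of all strong runs and of the probes on each chromosome arm, with bars from 0. X holds 40.0% of the focal peaks, 20.7% of the strong runs and 19.0% of the probes.

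The rule's limits fell within a continuous range of values. Just inside the flank limit were the *Ppcs* peak (0.298), chr2R:14426264-14426513 (0.297) and chr3L:1090621-1090932 (0.297), and just outside were runs at chr3L:9047003-9047318 (0.304), chr2R:9468650-9469029 (0.304) and chr2L:19117172-19117477 (0.305). The longest peaks were chr2R:2128960-2129877 (918 bp), chr3L:17571504-17572271 (768 bp) and the *Sap-r* peak (712 bp). The 1 strong run with quiet flanks that was too long was chr3R:27421263-27422332, which spans 1070 bp and had 1.32 and 1.77. The lowest peaks in a single replicate were chr3R:8303221-8303462 (0.85 and 1.58), chrX:11888844-11889165 (0.85 and 1.20) and chr3L:11623888-11624197 (0.86 and 1.40).

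Peaks were also called in 1 replicate alone and then measured in the other, which had no part in choosing them. Replicate 1 alone gave 1022 focal peaks with a median ratio of 1.10 there and 0.67 in replicate 2, where 92.4% were above 0 and 41.6% above 0.8. Of the running means of all probes in replicate 2, 55.3% were above 0 and 11.6% above 0.8. Replicate 2 alone gave 523 focal peaks with a median of 1.11 there and 0.50 in replicate 1, where 89.1% were above 0 and 23.3% above 0.8, against 51.9% and 9.55% of all probes. Low runs chosen the same way had the same sign in the other replicate for 92.5% of 800 from replicate 1 and 92.4% of 157 from replicate 2, and were below −0.8 there for 13.2% and 32.5%. The replicates share their probes. Of the 70 focal peaks, 58 overlapped a peak of replicate 1 alone and 26 a peak of replicate 2 alone.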

How the data were processed

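The authors deposited 1 scanner output per array, with intensity values of each channel that were background-subtracted and dye-normalized by Agilent Feature Extraction version 11.5.1.1 per the file headers. The deposited log10 ratio of a spot is that of the processed Cy5 (Myb immunoprecipitate) over the processed Cy3 (input) intensity, and was used only as a check. A further table that the authors deposited holds log2 values for each replicate. Blank subtraction and a median normalization are described in the paper's methods, but not for this table by name, so its processing stays unknown here. It served as an alternative once centred.

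The log2 of the processed Cy5 over Cy3 intensity was computed for each spot. Control spots and spots marked as outliers, between 0.0364% and 0.353% of an array, were left out. Repeated spots were averaged per probe. Log ratios were centred by subtracting the median of the array, and no loess or quantile step followed, since many probes carry signal. Such a ratio is sensitive to the background where input is dim, so normexp (limma version 3.58.1, R version 4.3.3, offset 50) was run as an alternative, which changes the model and the offset together. Positions are those of the dm3 assembly in the probe names. The rule was applied in Python (3.11.15; packages scipy 1.17.1, pandas 2.3.3, numpy 2.4.6) and was checked on simulated data with planted peaks. The flank means are those of both replicates over probes that start within 1 kb of the run.

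The peaks, the gene lists and the rule for naming peaks were chosen with earlier results of these data known. Named were the 10 highest peaks, the highest of each arm, the 3 with the largest difference between replicates, those nearest to each limit and those placed at a gene within 500 bp, and in addition the peak at an enhancer-blocking element. Genes were placed by entries of the study's peak list and expression table that were used here in part, for their positions and names only. Tested alternatives concern the background, the centring, the thresholds, the smoothing, the flanks and each replicate alone. Sequence motifs of the peaks were not analysed here, and 1 of the peaks placed at a gene is not reported here.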

Additional observations from a re-analysis of the deposited data

How the results depend on the processing

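The number of focal peaks depended on the height, the number of probes, the flanks, centring on the mode and leaving out a replicate. Which peaks were found also depended on the background correction, the centring of each arm, the table and the smoothing. The span limit was not varied. Against 70 peaks with a median log2 ratio of 1.23 and 40.0% on X, there were 17 peaks with a height above 1.0 (median 1.42, 52.9% on X), 373 above 0.6 (0.99, 26.8%), which held 69 of the 70, 28 with 6 or more probes (median 1.35), 38 when arrays were centred on the mode, 13 with flanks below 0.2 and 7 with flanks below 0.3 in each replicate. Leaving out a replicate gave between 523 and 1022 peaks, with medians between 1.10 and 1.11 and between 24.1% and 30.8% on X. Without replicate 1 there were 523 and without replicate 2 there were 1022. With flanks from 400 to 1400 bp, chosen after seeing the data, there were 167 peaks, 16.8% of them on X, and 38 of the 70 remained. The other alternatives gave between 50 and 98 peaks. Of these normexp gave 98, with 27.6% on X, and shared 20 of the 70, the deposited log2 table gave 67 and shared 36, a running mean of 5 probes gave 50 and shared 30, and centring each arm, also chosen after seeing the data, gave 90 and shared 43. The cause of these shifts was not tested.

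Start gaps up to 300 bp gave the same 70 peaks. Of 31 peaks named in the report, with the ratio that chose them measured again, all were above 0 under normexp, 24 were above 0.8, and the lowest had 0.36. No paired analysis was possible because the immunoprecipitate and input of a replicate are already set against each other on 1 array and there is no second group. The 2 replicates, dim input and the lack of a dye swap limit these values. The motif share and its alternative window were not run, since no sequence of the peaks was used here.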
